A study of Mus musculus with 13 samples.

Results

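Heat shock proteins are chaperones that bind unfolded or partly folded proteins, and a cell under proteotoxic stress makes more of them when heat shock factor 1 (Hsf1) binds heat shock elements in their promoters. Hsp70 proteins hold clients in cycles of ATP binding and hydrolysis that Hsp40 proteins start and nucleotide exchange factors such as Hsp110 end, whereas Hsp90 matures kinases, receptors and other clients. Oocytes store large amounts of mRNA and protein for use after the meiotic arrest, and chaperones are part of that store. The 10 genes described here were chosen by name from the 49585 genes to which the transcripts of the libraries could be assigned: Hspa1a, Hspa1b, Hspa8, Hspa2, Hsp90aa1, Hsp90ab1, Hspb1, Dnajb1, Hsph1 and Hsf1. All 10 had reads in each of the 13 libraries.

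Ovaries of P5 female CD-1 mice were cultured overnight and γ-irradiated from a caesium source with 0.5 or 0.2 Gy, and oocyte RNA was sequenced at 0 h, that is before irradiation, and at 1, 2.5, 4 and 6 h. At 0.5 Gy there were 8 libraries, of which 0, 1 and 4 h had 2 per time point while 2.5 and 6 h had 1, and at 0.2 Gy there was 1 library at each of the 5 time points. In the sample labels, replicate 1 of 0.5 Gy belonged to the first generation, replicate 2 and the 2.5 and 6 h libraries to the second, and all 0.2 Gy libraries to the third. The labels do not say what a generation is, so dose and generation cannot be told apart, and no unirradiated library of a later time point was used here, so time after irradiation and time in culture cannot be told apart either. Each time point was made from 4 pooled ovaries that were dissociated in trypsin at the end of the culture, and oocytes were separated from follicular cells by repeated centrifugation. No source states that replicates came from separate cultures, so the p-values measure only the spread between these libraries, which may be technical.

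The libraries held between 15709549 and 30430104 estimated reads, with the lowest sum in the second replicate of 0 h at 0.5 Gy. Levels of a gene between libraries are given as CPM, that is estimated reads scaled to library size with the TMM method, and levels between genes as TPM, which also take transcript length into account. All 14 oocyte markers had reads in every library and their summed level lay between 4462 and 6931 CPM, so the labelled cell type was present. The 12 granulosa markers summed to between 2105 and 4090 CPM, the 8 markers of stroma and theca to between 1815 and 3610 CPM, and the 5 red blood cell genes to between 856 and 6285 CPM. The 6 leukocyte markers summed to 249 CPM in the second replicate of 0 h at 0.5 Gy and to 36.6 to 95.8 CPM in the other libraries, with 129.6 CPM for S100a8 alone in that replicate. That library is 1 of the 2 of 0 h at 0.5 Gy, so every comparison with 0 h at that dose rests on it in part. None of these markers was at 0 in any library, so RNA of somatic cells is among the RNA counted here. In such mixed RNA, fewer cells of a type and less RNA per cell cannot be told apart. To see whether the response reported by the study is found here, 6 targets of the p53 family were examined, such as Mdm2 and Cdkn1a. The study drew on the same libraries, so their rise is no separate support. All 6 rose and were called in the late libraries of 0.5 Gy, beside 0.128% of all genes. For Mdm2 the log2 fold change was 2.63 (adjusted p = 0.00362, edgeR quasi-likelihood test). With the generation as a replicate block 5 of the 6 targets were called, without 1 library between 4 and 6, and with limma on log2(TPM + 1) 0. Against 0 h, edgeR with a filter on low counts called 0 of 6 at any time point, but 3 at 4 h and 3 at 6 h with the block. DESeq2 called 5 of 6 at 2.5 h and 6 of 6 at 4 and at 6 h, beside 0.179%, 0.267% and 0.3% of all genes. Without that filter, edgeR called the same numbers of the 6. At 0.2 Gy, edgeR with the filter called 0 of 6 late against early (smallest adjusted p = 0.0639, edgeR).

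The sequences of the 2 inducible Hsp70 genes matter for reading their values. Hspa1a and Hspa1b lie next to each other on the minus strand of chromosome 17 (GRCm38, chr17:34969190-34972156 and chr17:34956436-34959238), each as 1 exon. Their coding sequences of 1923 and 1926 bases differed at 8 aligned bases and by 1 gap of 3 bases. Of the 1894 windows of 30 bases in the coding sequence of Hspa1a, 1681 (88.75%) also occurred in that of Hspa1b. Over whole transcripts, 64.1% of the windows of Hspa1a occurred in Hspa1b and 68.0% of those of Hspa1b in Hspa1a. Most reads of this length from one gene thus fit the other as well. The stretch of 60 coding bases that holds 2 of the differences is shown with them in capitals (coding bases 1357 to 1416, minus strand, chr17:34970510-34970569 for Hspa1a and chr17:34957592-34957651 for Hspa1b, from the GENCODE transcripts of GRCm38).
Hspa1a: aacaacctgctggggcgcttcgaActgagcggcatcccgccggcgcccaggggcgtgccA
Hspa1b: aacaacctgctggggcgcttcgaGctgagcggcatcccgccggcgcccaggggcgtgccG

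Heat shock elements are built from GAA units in alternating orientation. RefSeq promoters of GRCm38.p6, of which the 250 bases before the transcription start were searched, were found for 6 of the 10 genes, in 8 entries (Hspa1a, Hspa1b, Hspa2, Hspb1, Dnajb1 and Hsph1). The letters GAANNTTC or TTCNNGAA, which read the same on both strands and can overlap each other, were present in the promoters of 4 of these 6 genes. The same letters occurred in 4218 of all 32851 promoters (12.8%). A longer form, in which another alternating unit follows at the same distance, occurred in 153 promoters (0.466%) and in none of the 8 entries. In Hsph1 the match began 33 or 54 bases before the start, depending on which of its 2 entries was read, and no such letters were found in the searched windows of Hspa2 and Dnajb1. The windows from 150 to 31 bases before the start of Hspa1a (minus strand, chr17:34972187-34972306), Hspa1b (minus strand, chr17:34959269-34959388) and Hspb1 (plus strand, chr5:135887769-135887888) are shown with the matches in capitals, because these genes are classical targets of Hsf1.
Hspa1a: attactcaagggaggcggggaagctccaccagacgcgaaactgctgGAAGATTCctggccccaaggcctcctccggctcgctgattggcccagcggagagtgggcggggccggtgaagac
Hspa1b: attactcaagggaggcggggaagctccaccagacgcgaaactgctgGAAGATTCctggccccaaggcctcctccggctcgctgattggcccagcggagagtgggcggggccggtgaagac
Hspb1: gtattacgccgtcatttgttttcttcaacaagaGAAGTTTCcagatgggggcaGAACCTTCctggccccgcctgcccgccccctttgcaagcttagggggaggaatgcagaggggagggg
Both Hsp70 genes held 1 match, 104 bases before the start, and their 250 upstream bases differed at 3 positions. Hspb1 held 2 matches, which began 117 and 97 bases before the start. A match is a description of letters and not a measured binding site.

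The 10 genes ranged from among the most abundant mRNAs of these libraries to barely detected ones. By TPM, the constitutive Hsp70 Hspa8 had a median of 1345 and ranked 21st among protein-coding genes, Hsp90ab1 a median of 947 at rank 43 and Hsp90aa1 a median of 557 at rank 94. A second tier was formed by Hsph1, an Hsp110 family exchange factor, with a median of 25.8 TPM, Hsf1 with 12.6 TPM, and Dnajb1, the main stress-inducible Hsp40, with 6.62 TPM. Hspa2, an Hsp70 best known from meiotic male germ cells, had a median of 4.04 TPM, and Hspb1, a small heat shock protein, 1.60 TPM. The inducible Hsp70 genes were lowest, with medians of 0.155 TPM for Hspa1b and 0.115 TPM for Hspa1a. The highest value of any library was 0.252 TPM for Hspa1b and 0.271 TPM for Hspa1a, and this includes the libraries taken before irradiation. The other genes lie on GRCm38 at chr9:40800984-40810087 (Hspa8), chr17:45567775-45573271 (Hsp90ab1), chr12:110690605-110702728 (Hsp90aa1), chr5:149614287-149636376 (Hsph1), chr15:76477422-76501913 (Hsf1), chr8:83608193-83612653 (Dnajb1), chr12:76404176-76406938 (Hspa2) and chr5:135887919-135889563 (Hspb1). The order of neighbours held in every library for 6 of the 9 neighbouring pairs in TPM. Hsp90ab1 lay above Hsp90aa1 in 12 of 13 libraries, Dnajb1 above Hspa2 in 11 and Hspa1b above Hspa1a in 9, so that the last of these pairs had no clear order.

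**Figure D1:**
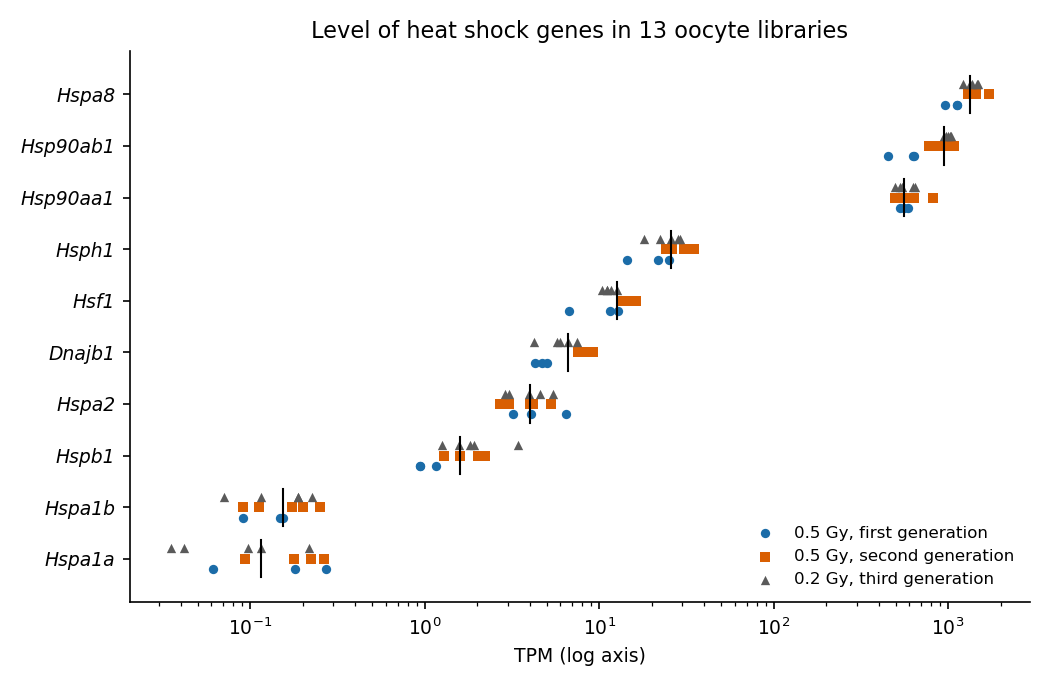
Level of each of the 10 heat shock genes in TPM on a log axis, with 1 point per library, coloured and shaped by dose and generation, and a black line at the median of the 13 libraries. Hspa8, Hsp90ab1 and Hsp90aa1 lie between 453 and 1714 TPM, and Hspa1a and Hspa1b at or below 0.271 TPM in every library.

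The top of this order depends on how reads were given to transcripts. In the deposited estimates only 10.3 to 33.8% of the reads of Hspa8 were placed on its protein-coding transcripts, and the rest on its non-coding ones, and the TPM of the gene depends on the lengths of those chosen. Per kb of the longest protein-coding transcript, a length chosen after the values were seen, Hspa8 had a median of 548 CPM, below Hsp90ab1 with 717 CPM in all 13 libraries and above Hsp90aa1 with 347 CPM. On this scale Hsf1 was above Dnajb1 in 2 of 13 libraries, whereas in TPM it was above it in all 13. Of the windows of 30 bases in Hspa8 transcripts, 45.1% occurred in transcripts of other genes too. The processed pseudogene Gm15459 (chr5:5781615-5783555, minus strand) held 38.8% of these windows and was given between 808 and 1654 CPM, a range that encloses that of Hspa8 itself with 1009 to 1502 CPM. The long non-coding RNA Gm26825, which overlaps it on the opposite strand, held 38.4% and was given between 302 and 791 CPM. These genes were singled out after their values were seen. Together with them and the pseudogene Gm8355, Hspa8 reads summed to between 2663 and 3587 CPM, a range of 1.35 times across the 13 libraries, and the share given to Hspa8 itself varied from 36.2 to 51.4%. The share was highest in the 0.2 Gy library of 1 h. Shared windows were also common for Hsp90aa1 (51.8%) and Hspb1 (55.7%), but the 2 pseudogenes that share most with Hsp90aa1 took so few reads that Hsp90aa1 kept at least 96.5% of the sum. Hspb1 kept between 42.7 and 71.2% of the sum with its 2 copies, and its few reads are uncertain for this reason.

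**Figure D2:**
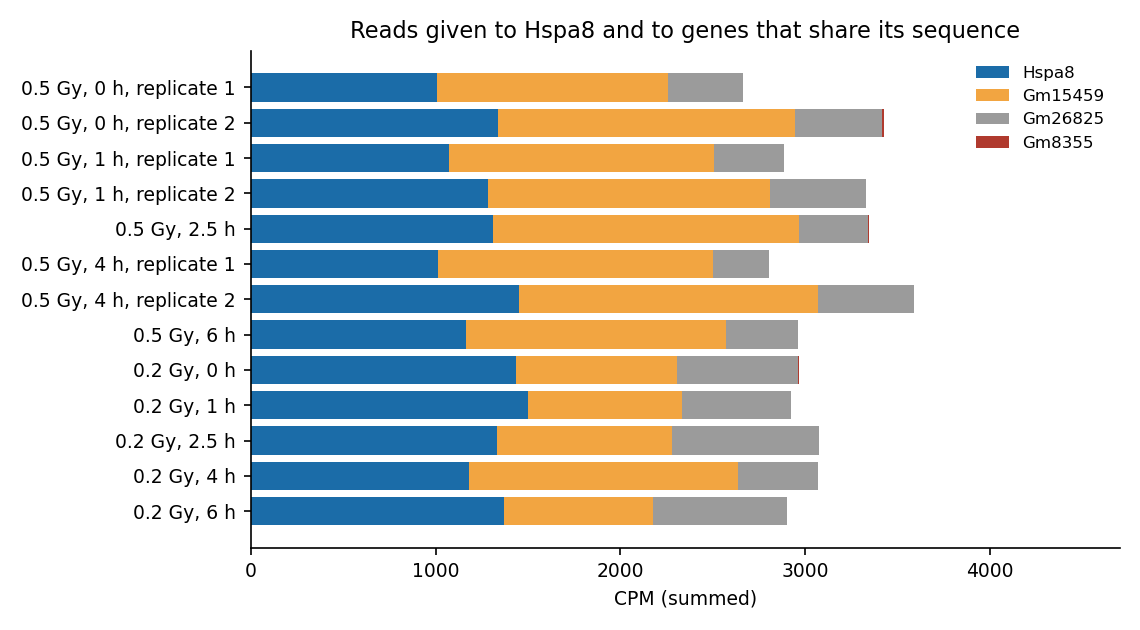
CPM given to Hspa8 and to the 3 genes that hold at least 30% of its windows of 30 bases, stacked for each of the 13 libraries. The summed bars range from 2663 to 3587 CPM, and Hspa8 itself makes up between 36.2 and 51.4% of them.

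None of the 10 genes was called at any time point after irradiation. To be called, a gene had to differ by more than 1 on the log2 scale with a p under 0.05 after Benjamini-Hochberg adjustment over all genes. Against 0 h at 0.5 Gy, 0 of 10 genes met this at 1, 2.5, 4 or 6 h, where 0.0% of the 28468 genes tested met it in each of these comparisons. At an unadjusted p under 0.05 the edgeR quasi-likelihood test gave 0 of the 10 at 1, 2.5 and 4 h and 1 lower at 6 h, and DESeq2 called 0 of them at any time, beside 0.0431%, 0.179%, 0.267% and 0.3% of all genes from 1 to 6 h. Over all genes that limit was passed upwards by 2.17%, 3.01%, 3.43% and 3.63% in the order of time points. Downwards it was passed by 1.81%, 2.57%, 2.4% and 2.31%. The smallest adjusted p of any of the 10 genes was 0.826, for Hsp90aa1 at 6 h. When the 4 late libraries of 2.5, 4 and 6 h were set against the 4 early libraries of 0 and 1 h, 0 of 10 passed beside 0.128% of 22588 genes, with 0 at an unadjusted p under 0.05 in edgeR and 0 called by DESeq2, beside 0.432% of all genes. Fitted log2 fold changes of the 10 genes lay between -0.33 and 0.35, with a median of 0.10 beside -0.02 over all genes tested. In none of the 10 did the 4 late libraries all lie above or all below the 4 early ones, which was the case for 3.18% of all genes upwards and 2.04% downwards.

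The inducible Hsp70 genes Hspa1a and Hspa1b, whose transcription is the usual readout of a heat shock response, had between 7 and 54 and between 9 and 55 estimated reads per library. Because their reads cannot be assigned well, they are given as a sum. The sum was 1.62 and 1.85 CPM in the 2 libraries of 0 h at 0.5 Gy, 3.14 and 2.92 CPM at 1 h, 1.90 CPM at 2.5 h, 1.94 and 2.93 CPM at 4 h and 2.69 CPM at 6 h. Both 1 h libraries lay above both 0 h libraries, and the values of the later time points lay between these extremes. Early and late libraries did not differ beyond their spread, at 2.38 ± 0.758 CPM (SD, n = 4) and 2.36 ± 0.524 CPM (SD, n = 4). The early group joins 0 h and 1 h, so this comparison cannot show a difference between these time points. At 1 h against 0 h the log2 fold change was 0.98 for Hspa1a (95% interval -0.64 to 2.61) and 0.58 for Hspa1b (-1.15 to 2.31). At 6 h against 0 h, with 1 library at 6 h, it was 1.26 for Hspa1a and -0.41 for Hspa1b. At 0.2 Gy the sum was 2.84, 1.80, 1.07, 0.741 and 2.15 CPM from 0 to 6 h, so that the lowest value was that of 4 h, with 20 reads. The fit gave a log2 fold change of -0.10 for Hspa1a (95% interval -1.25 to 1.04) and of 0.06 for Hspa1b (-1.04 to 1.15) late against early at 0.5 Gy. Both intervals include a log2 fold change of 1 in either direction, so a change of that size is not excluded. At 0.2 Gy, where the 4 and 6 h libraries were set against those of 0 and 1 h with the spread taken from both doses, the log2 fold change of Hspa1a was -0.94 (-2.65 to 0.76). Without the 6 h library of 0.2 Gy it was -1.9971 and without its 1 h library -1.41, against -0.34 without that of 4 h and -0.18 without that of 0 h.

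Immediate early genes such as Fos, Jun and Egr1, which are known to be switched on with Hspa1a and Hspa1b when tissue is dissociated with enzymes at a warm temperature, were measurable in every library. The 10 of them that were listed summed to between 150 and 578 CPM, with 258 to 509 CPM in the early and 418 to 578 CPM in the late libraries of 0.5 Gy and 150 to 448 CPM at 0.2 Gy. Of these sums at 0.5 Gy, Btg2 alone made up 59.6 to 99.35 CPM early and 149 to 232 CPM late. Late against early there, Fos and Egr1 had log2 fold changes of -0.42 and -0.32, and Jun and Ier2 of 0.23 and 0.44. Btg2, which is a target of p53 as well, came nearest to a call of the listed genes in that comparison (log2 fold change 1.198, adjusted p = 0.0649 in edgeR). It was called there by DESeq2 and by edgeR without the filter on low counts (adjusted p = 0.0107). With the filter, edgeR called 0 of the 10 at either dose. Their part in the Hsp70 values was not tested.

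Hspa8, which folds new proteins and uncoats clathrin vesicles in all cells, showed no trend over time. At 0.5 Gy it had 1009 and 1339 CPM at 0 h, 1072 and 1282 CPM at 1 h, 1313 CPM at 2.5 h, 1013 and 1450 CPM at 4 h and 1166 CPM at 6 h. In each pair of replicates the first one was the lower. Between early and late libraries the log2 fold change was 0.05 (SE 0.16, 95% interval -0.30 to 0.40, adjusted p = 0.955), and an interval this narrow does not include a change of 1 on the log2 scale. The 0.2 Gy libraries had 1437, 1502, 1332, 1180 and 1368 CPM from 0 to 6 h, and their log2 fold change was -0.23 (SE 0.20, 95% interval -0.68 to 0.21). Summed with its copies, Hspa8 gave -0.01 at 0.2 Gy in place of -0.23 and 0.02 at 0.5 Gy.

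Hspa2 varied about as much within a time point as between time points. It had 24.4 and 14.7 CPM at 0 h, 45.2 and 21.5 CPM at 1 h, 34.7 CPM at 2.5 h, 27.6 and 31.3 CPM at 4 h and 27.9 CPM at 6 h of 0.5 Gy. The 1 h replicates enclosed all later values, and the 0 h replicates were among the 3 lowest of the 8. From early to late, the log2 fold change of Hspa2 was 0.19 (SE 0.28, adjusted p = 0.885) at 0.5 Gy and 0.19 (SE 0.43, adjusted p = 0.943) at 0.2 Gy, where it ranged from 18.4 to 34.4 CPM.

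Hsp90aa1, the more stress-responsive of the 2 cytosolic Hsp90 genes, had its highest CPM values before irradiation at 0.5 Gy. The first-generation libraries had 1391 CPM at 0 h, 1348 CPM at 1 h and 1199 CPM at 4 h. The second-generation libraries had 1386 CPM at 0 h, 1114 CPM at 1 h, 1140 CPM at 2.5 h, 1027 CPM at 4 h and 870 CPM at 6 h. In both generations the 1 h value was below that of 0 h and the 4 h value below that of 1 h. The early and late groups overlapped only through the 1 h library of the second generation. In TPM the first-generation libraries had 530, 593 and 558 at 0, 1 and 4 h, so this fall did not hold there. The second-generation libraries of these time points had 824, 557 and 498 TPM. The mean was 1310 ± 132 CPM in the early and 1059 ± 145 CPM in the late libraries (SD, n = 4 each). The log2 fold change was -0.33 (SE 0.16, 95% interval -0.67 to 0.01, adjusted p = 0.564) late against early and -0.66 (SE 0.29, 95% interval -1.31 to -0.0002, adjusted p = 0.826) at 6 h against 0 h. Neither passed the adjustment over all genes, and Hsp90aa1 was the gene of the 10 with an unadjusted p under 0.05 at 6 h.

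At 0.2 Gy the order was the other way round. Hsp90aa1 had 874 CPM at 0 h, 964 CPM at 1 h, 1137 CPM at 2.5 h, 1188 CPM at 4 h and 1125 CPM at 6 h. The lowest CPM values were thus those before and 1 h after irradiation. In TPM the 6 h library, at 529, lay below that of 1 h, at 547. The log2 fold change of 4 and 6 h against 0 and 1 h was 0.30 (SE 0.19, adjusted p = 0.760) at 0.2 Gy. It differed from that of the same time points at 0.5 Gy by 0.66 (95% interval 0.14 to 1.19, adjusted p = 0.564). Among the 10 genes only Hsp90aa1 had an unadjusted p under 0.05 in that comparison, in which 4.2% of all genes were higher and 3.93% lower at that limit and 0 of the 10 genes were called, beside 0.032% of all genes. DESeq2 called 0 of the 10 there too, beside 0.276% of all genes. In the early libraries Hsp90aa1 was lower at 0.2 Gy than at 0.5 Gy by a log2 fold change of -0.48 (SE 0.17, 95% interval -0.85 to -0.11, adjusted p = 0.245). These early libraries include those of 0 h, which had received no dose. At 0 h Hsp90aa1 had 874 CPM in the 0.2 Gy set, beside 1391 and 1386 CPM in the 0.5 Gy set. The difference of 0.66 between doses holds this gap before irradiation as well. At 1 h dose and generation cannot be told apart. In this comparison 7.87% of all genes were higher and 7.02% lower at an unadjusted p under 0.05, against 0 and 1 of the 10 genes, and neither edgeR nor DESeq2 called any of the 10, beside 0.121% of all genes in edgeR and 1.0% in DESeq2.

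Hsp90ab1, the constitutive cytosolic Hsp90, did not follow its partner. It ranged from 1575 to 2190 CPM at 0.5 Gy and from 1714 to 2024 CPM at 0.2 Gy, in CPM the narrowest relative spread of the 10 genes. The coefficient of variation over the 13 libraries was 9.24%, against a median of 20.6% for the 210 tested genes at or above 500 CPM. In TPM the narrow spread did not hold. There Hsp90ab1 ran from 453 to 1087, beside 964 to 1714 for Hspa8 and 498 to 824 for Hsp90aa1. The 4 h replicates of 0.5 Gy were at 1731 and 2190 CPM and the 0 h replicates at 1575 and 1739 CPM. The log2 fold change of Hsp90ab1 was 0.14 (95% interval -0.16 to 0.44) at 0.5 Gy and 0.12 (-0.24 to 0.48) at 0.2 Gy. Neither interval includes a log2 fold change of 1.

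**Figure D3:**
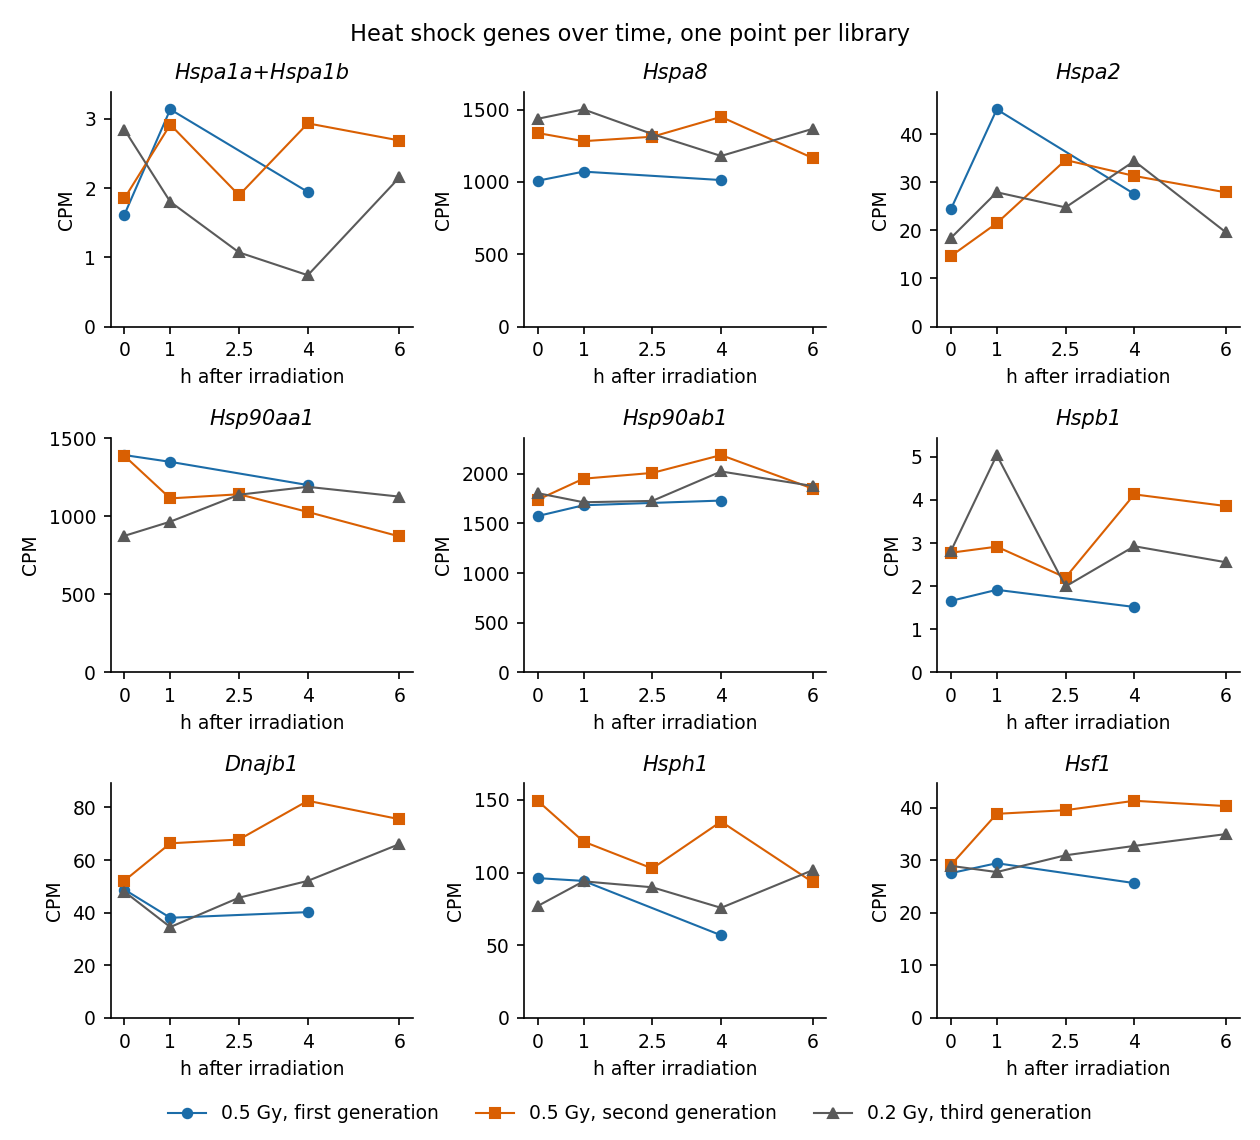
CPM of Hspa1a and Hspa1b summed and of the other 8 heat shock genes against hours after irradiation, with 1 point per library, lines joining the libraries of 1 generation, and every vertical axis starting at 0. The second-generation libraries of 0.5 Gy lie above the first-generation ones for Hspa8, Hsp90ab1, Hspb1, Dnajb1, Hsph1 and Hsf1 at 0, 1 and 4 h, and Hsp90aa1 is highest at 0 h of 0.5 Gy, at 1391 and 1386 CPM.

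The remaining 4 genes were not called either. Hspb1, which caps actin filaments and holds unfolded proteins without ATP, had between 39 and 168 reads per library and between 1.52 and 5.04 CPM. Its late libraries at 0.5 Gy had 2.20, 1.52, 4.13 and 3.86 CPM and its early ones 1.66, 2.78, 1.91 and 2.92 CPM, so that the groups overlapped. The log2 fold change of Hspb1 late against early was 0.31 (SE 0.42) at 0.5 Gy and -0.55 (SE 0.55) at 0.2 Gy. Dnajb1 had 48.8 and 52.2 CPM at 0 h, 38.1 and 66.4 CPM at 1 h, 67.8 CPM at 2.5 h, 40.2 and 82.6 CPM at 4 h and 75.5 CPM at 6 h. Here the values of the first generation stayed below 50 CPM and those of the second lay above 50 CPM at every time point. The log2 fold change of Dnajb1 late against early was 0.35 (SE 0.23, adjusted p = 0.690), and 0.18 (SE 0.16, adjusted p = 0.791) with the generation as a replicate block. At 0.2 Gy Dnajb1 had 48.0, 34.5, 45.7, 52.1 and 66.1 CPM, with a log2 fold change of 0.49 (SE 0.34, adjusted p = 0.776).

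Hsph1 pointed the other way at 0.5 Gy. It had 96.2 and 149 CPM at 0 h, 94.3 and 121 CPM at 1 h, 103 CPM at 2.5 h, 56.9 and 135 CPM at 4 h and 93.4 CPM at 6 h, with the lowest value in the first replicate of 4 h. The log2 fold change was -0.28 (SE 0.25, adjusted p = 0.771) late against early and -0.46 (SE 0.16, adjusted p = 0.458) with the replicate block. At 0.2 Gy Hsph1 gave 0.03 (SE 0.35, adjusted p = 0.9925, edgeR) late against early. Hsf1, the factor itself, had 27.6 and 29.1 CPM at 0 h, 29.5 and 38.9 CPM at 1 h, 39.6 CPM at 2.5 h, 25.7 and 41.4 CPM at 4 h and 40.4 CPM at 6 h. All values between 38.9 and 41.4 CPM came from libraries of the second generation at 1 h and later. The first generation stayed between 25.7 and 29.5 CPM, and the 0 h library of the second, at 29.1 CPM, lay within that range. From 0 to 4 h the log2 change was 0.50 in the second generation and -0.10 in the first. The log2 fold change of Hsf1 late against early was 0.21 (SE 0.19, adjusted p = 0.775) at 0.5 Gy and 0.10 with the replicate block. At 0.2 Gy it was 0.23 (SE 0.26, adjusted p = 0.869), where Hsf1 levels ran from 27.8 CPM at 1 h to 35.03 CPM at 6 h. Hsf1 is controlled mainly through its binding to chaperones, trimerization and phosphorylation, none of which RNA shows. At 0.2 Gy 0 of the 10 genes were called late against early, beside 0.0462% of 28162 genes, and 0 of them had an unadjusted p under 0.05 in edgeR. DESeq2 called 0 of them as well, beside 0.309% of all genes.

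Of the comparisons made, the one between the generations of 0.5 Gy held the most genes of the 10 with an unadjusted p under 0.05. In a fit with time and generation, the second generation was higher for Hsph1 by a log2 fold change of 0.76 (SE 0.21, adjusted p = 0.374), for Dnajb1 by 0.66 (SE 0.22, adjusted p = 0.457) and for Hspa8 by 0.41 (SE 0.14, adjusted p = 0.458). Hspb1, with few reads, gave 0.94 (SE 0.46, adjusted p = 0.591), and Hspa2 gave -0.53 (SE 0.29, adjusted p = 0.628). None of the 10 genes was called by edgeR, beside 0.0913% of all genes, or by DESeq2, beside 0.384%. In edgeR 3 of 10 were higher at an unadjusted p under 0.05 beside 5.12% of all genes, with none lower beside 4.04%. In the 3 pairs of replicates at 0, 1 and 4 h, 6 of the 10 genes were higher in the second generation each time, beside 15.3% of all genes, and 1, Hsp90aa1, was lower each time, beside 16.8%. The gap was widest at 4 h for Hsph1 (1.25 on the log2 scale) and Dnajb1 (1.04) and narrowest at 0 h for Dnajb1 (0.10) and at 1 h for Hsph1 (0.36). In fits that left out 1 library each, the difference between generations was 0.52 to 0.96 for Hsph1 and 0.47 to 0.91 for Dnajb1. Granulosa markers summed to 3754, 2978 and 2791 CPM in the first generation and to 2967, 3017 and 3539 CPM in the second at 0, 1 and 4 h, and oocyte markers to 5534, 4834 and 4462 CPM and to 5257, 6054 and 5622 CPM. The oocyte sum was thus higher in the second generation at 1 and 4 h and lower at 0 h, and its part in the difference of the chaperone genes was not tested. Of the 10 immediate early genes, edgeR called 0 between generations, with Egr1 (log2 fold change -1.24, adjusted p = 0.222) and Fos (-0.92, adjusted p = 0.440) lower and Dusp1 (0.85, adjusted p = 0.520) higher at an unadjusted p under 0.05. Egr1 was called by DESeq2, without the filter and in 4 of the fits that left out a library, and Fos in 2 of these. Their part was not tested either. Summed with its copies, Hspa8 differed between generations by a log2 fold change of 0.32 (adjusted p = 0.505).

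**Figure D4:**
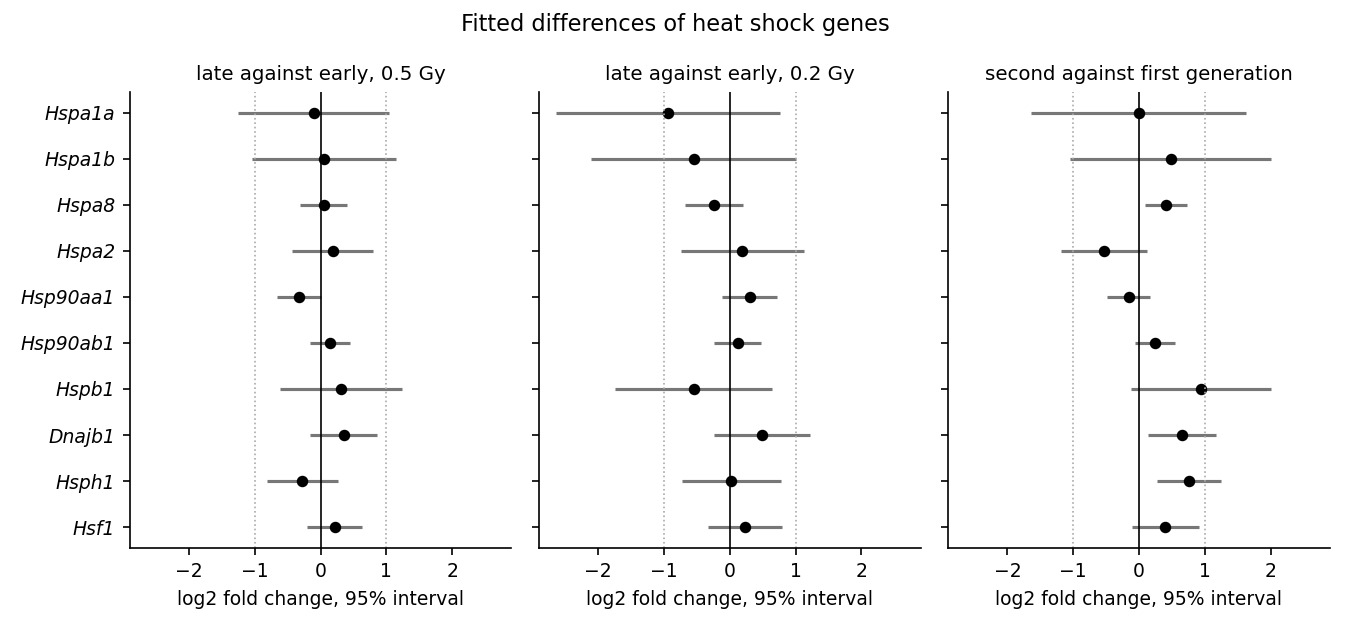
Log2 fold change of each of the 10 genes with its 95% interval in 3 comparisons, with dotted lines at -1 and 1. The 10 points lie between -0.33 and 0.35 for late against early libraries of 0.5 Gy. Between generations the intervals of Hspa8, Dnajb1 and Hsph1 do not include 0.

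The wider chaperone network was examined with 73 further genes in 10 roles. In the comparison of late against early libraries at 0.5 Gy, 70 of them passed the filter on low counts and 0 were called, with 7 higher and 2 lower at an unadjusted p under 0.05, beside 4.77% and 4.29% of all genes. DESeq2 called 0 of them there, beside 200 of all genes (0.432%), and 1, Bag2, at 4 h against 0 h, beside 124 of all genes (0.267%). The median log2 fold change was 0.04 beside -0.02 over all genes. At 0.2 Gy 0 of 73 were called, with 4 higher and 0 lower at that limit beside 3.03% and 4.26%. DESeq2 called 1, Bag4, at 0.2 Gy, beside 147 of all genes (0.309%). Against 0 h, 0 of 72 were called at 1, 2.5, 4 or 6 h, with between 1 and 4 higher and between 0 and 2 lower at an unadjusted p under 0.05. Over all genes these shares were 0.0% called, 2.17 to 3.63% higher and 1.81 to 2.57% lower.

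By role, genes that release nucleotide from Hsp70 or bind it had the highest median log2 fold change late against early at 0.5 Gy, 0.24 in 9 genes, and the 5 chaperones of the endoplasmic reticulum the lowest, -0.25, with all 5 below 0. The 8 subunits of the cytosolic chaperonin that folds actin and tubulin had a median of 0.05. The 4 genes with the smallest p among those that were higher were Bag4, Bag2, Dnaja3 and Unc45a. Bag4, an Hsp70 partner that also silences death receptors, had 53.4, 63.6, 59.6 and 39.1 CPM in the early and 80.2, 111, 98.0 and 109 CPM in the late libraries of 0.5 Gy. All late values thus lay above all early ones, which was the case for 3.18% of all genes and also for Bag2 and Dnaja3. Bag4, Bag2 and Dnaja3 were named for their small p in this same comparison, so this order is no separate support. The log2 fold change of Bag4 was 0.86 (SE 0.19, adjusted p = 0.168, edgeR). At 0.2 Gy Bag4 had 33.9, 38.6, 54.2, 109 and 89.9 CPM from 0 to 6 h, with a log2 fold change of 1.42 (adjusted p = 0.0873). In edgeR, Bag4 had the smallest adjusted p of the 73 genes in both comparisons and passed in neither, while at 0.2 Gy it passed without the filter on low counts (adjusted p = 0.0387) and in DESeq2 (adjusted p = 6.801e-05).

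Bag2, which stops the ligase Stub1 from marking Hsp70 clients, had 19.3 ± 2.79 CPM in the early and 34.3 ± 7.72 CPM in the late libraries (SD, n = 4 each) with an adjusted p of 0.243 in edgeR. Dnaja3, a mitochondrial Hsp40, had 61.0 ± 7.20 CPM and 96.8 ± 20.3 CPM (adjusted p = 0.313, edgeR), and Unc45a, a myosin chaperone that works with Hsp90, 10.4 ± 2.63 CPM and 17.3 ± 4.03 CPM (adjusted p = 0.445, edgeR). Of the genes that were lower, Ptges3, the Hsp90 co-chaperone p23, had 1140, 775, 1158 and 591 CPM early and 540, 639, 510 and 451 CPM late, so that the groups overlapped through the 4 h library of the first generation alone. The log2 fold change of Ptges3 was -0.79 (SE 0.22, adjusted p = 0.313, edgeR). In the first generation Ptges3 had 1140, 1158 and 639 CPM at 0, 1 and 4 h, above the second with 775, 591 and 510 CPM. At 0.2 Gy Ptges3 had 501, 510, 606, 566 and 700 CPM from 0 to 6 h, so it was not lower late there. Hspe1, the mitochondrial co-chaperonin, gave -0.43 (adjusted p = 0.523, edgeR). Hsp90b1, the Hsp90 of the endoplasmic reticulum, gave -0.33 (adjusted p = 0.602), and Calr, a calcium-binding chaperone there, -0.26 (adjusted p = 0.648, edgeR). At 0.2 Gy Hspe1 had 120 and 117 CPM at 0 and 1 h and 158 and 165 CPM at 4 and 6 h. At the same time points Hsp90b1 had 831, 864, 819 and 932 CPM, and Calr 530, 526, 400 and 426 CPM.

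**Figure D5:**
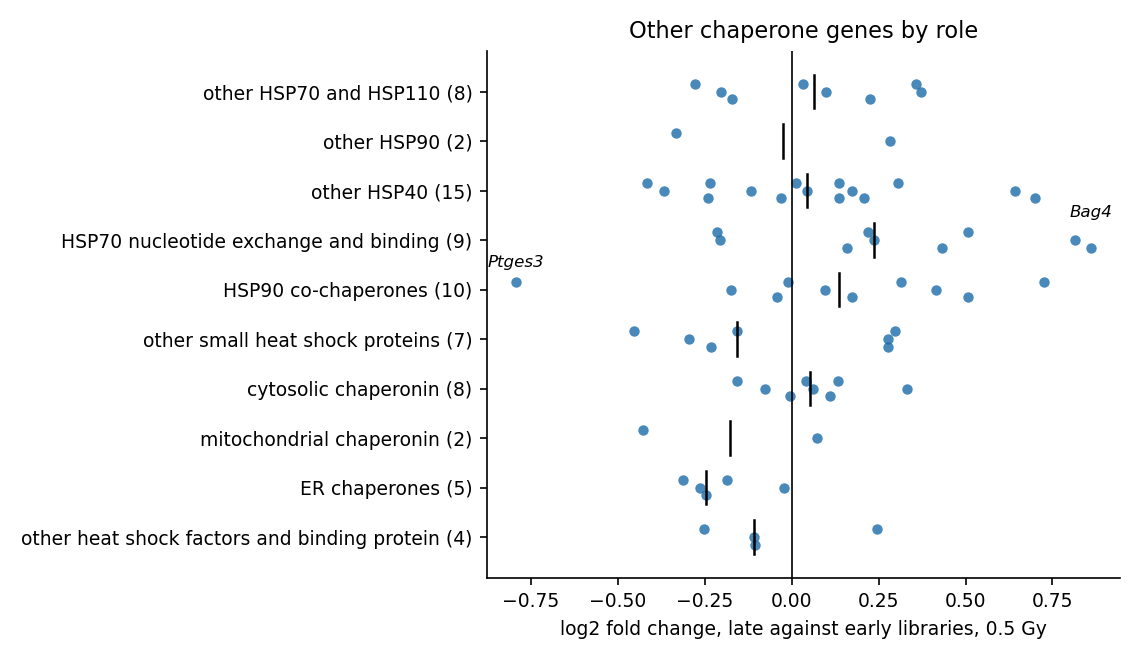
Log2 fold change, late against early libraries of 0.5 Gy, of the 70 other chaperone genes that passed the filter on low counts, with 1 point per gene, black lines at the median of each role and the number of genes in brackets. Bag4 lies farthest to the right at 0.86 and Ptges3 farthest to the left at -0.79, and no gene was called.

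For 3 of the patterns, the genes whose log2 CPM was most alike over the 13 libraries were looked up among 11641 other protein-coding genes with a mean of at least 5 CPM. They were Ddx3x (r = 0.954), Atp5f1 (r = 0.948) and Pbrm1 (r = 0.931) for Hsp90aa1, 0610010K14Rik (r = 0.888), Chchd6 (r = 0.874) and Eif2b1 (r = 0.866) for Hspa2, and Fez2 (r = 0.845), Igsf8 (r = 0.845) and Acsl5 (r = 0.839) for the sum of Hspa1a and Hspa1b. These are descriptions over libraries that share dose, generation and depth.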

How the data were processed

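The authors mapped the reads with salmon to the mouse transcripts of the Ensembl release named in the study's methods (GRCm38) and deposited estimated counts and TPM per transcript and library, neither of them normalized between libraries. The sources give the read layout as single-end in 1 place and as paired-end in another. The authors also deposited comparisons of time points (log2 fold changes, p-values) and merged normalized counts made with DESeq2 1.24.0, which were not used here.

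Estimated counts were summed per gene with the GENCODE annotation of GRCm38, rounded, filtered with filterByExpr, scaled with TMM and fitted across all genes with the quasi-likelihood test of edgeR 4.0.16 in R 4.3.3, with Benjamini-Hochberg adjustment. Alternatives used DESeq2 1.42.0, limma 3.58.1 on log2(TPM + 1), other filters and time points, and fits without 1 library. For the time points with 1 library, the spread came from those with 2. Up to 0.495% of a library's reads had no gene. The fits were tested on simulated counts. Early and late groups join several time points, and their SD also holds any difference between these.

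The 10 genes and all lists were chosen with earlier results of these data known. Of the 73 other chaperone genes, those called and the 4 with the smallest p in each direction, late against early at 0.5 Gy, were named. The replicate number follows the labelled generation, and deviations of libraries with the same number correlated between time points (r = 0.308, 0.170 and 0.257 over 12868 genes), so generation served as a block in an alternative fit.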

Additional observations from a re-analysis of the deposited data

Results flagged for a closer look

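In 30 groups (10 genes in the 4 early and 4 late libraries of 0.5 Gy and the 5 libraries of 0.2 Gy), 3 had a library whose gap to the next value exceeded Dixon's 95% critical value, and chance alone gives such a gap in about 1 of 20 groups (0.05). Among the early libraries of 0.5 Gy, the second replicate of 1 h was lowest for Hsp90aa1, at 1114 CPM (1113.5) beside 1348 to 1391 CPM in the other 3, and highest for Hsf1, at 38.9 CPM beside 27.6 to 29.5 CPM. Among the late libraries of 0.5 Gy, the first replicate of 4 h, the only one of the first generation, was lowest for Hsf1, at 25.7 CPM beside 39.6 to 41.4 CPM.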

How the results depend on the processing

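None of the 10 genes was called in any of the 9 comparisons under any of 134 alternative fits: DESeq2 size factors, the DESeq2 Wald test, no filter on low counts, Hspa1a and Hspa1b summed, the replicate block, other sets of time points, limma on log2(TPM + 1) for late against early at 0.5 Gy, fits without 1 library and, chosen after seeing the data, genes summed with their copies. The main edgeR fits called only 0.0 to 0.128% of all genes, so a count of 0 of 10 that stays the same says little about stability. Between generations without a filter, Hsph1 had an adjusted p of 0.0322 in edgeR, with a log2 fold change of 0.75. The replicate block changed no call of these 10 genes or of the 73 other chaperone genes. It did change calls of the p53 targets, with Sesn2 lost late against early and Cdkn1a, Eda2r and Mdm2 gained at 4 and 6 h, and over all genes it called 18 in place of 29 late against early and 0, 1, 6 and 7 in place of 0 from 1 to 6 h. Counts over all genes did depend on the tool: DESeq2 called 200 genes late against early at 0.5 Gy where edgeR called 29, 147 against 13 at 0.2 Gy, 131 against 9 for the difference between doses, 477 against 34 between doses in early libraries, 178 against 26 between generations, and 20, 83, 124 and 139 against 0 from 1 to 6 h. Without a filter edgeR called 30, 56, 80 and 78 from 1 to 6 h, and 58, 32, 22, 71 and 453 in the other comparisons in the order just given. Of 554 alternative values of single genes, 23 changed sign. Late against early at 0.5 Gy, Hspa1a turned to 0.0914 without the 2.5 h library, Hspa1b to -0.0823 and Hspa8 to -0.0233 under the replicate block, and Hspa1b to -0.0046 with limma. Between generations Hspa1a turned to 0.24 when summed with Hspa1b. Leaving out 1 library gave ranges at 0.5 Gy of -0.47 to 0.20 for Hspa1a, -0.40 to 0.27 for Hspa1b, -0.0279 to 0.14 for Hspa8 and -0.0028 to 0.57 for Hspa2, at 0.2 Gy of -0.28 to 0.55 for Hspa2, -0.19 to 0.21 for Hsph1 and, with no change of sign, -1.9971 to -0.18 for Hspa1a, and between generations of -0.63 to 0.38 for Hspa1a and -0.17 to 1.09 for Hspa1b. The cause was not tested. Hsp90aa1 kept its sign in all fits, from -0.39 to -0.24 late against early at 0.5 Gy and from 0.55 to 0.80 in the difference between doses without 1 library. The few reads of Hspa1a, Hspa1b and Hspb1 limit what can be said of them.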

Other observations

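The wider chaperone genes were also compared between the generations of 0.5 Gy. Of 72 genes tested, 0 were called in edgeR, with 13 higher and 5 lower in the second generation at an unadjusted p under 0.05, beside 5.12% and 4.04% of all genes. All 8 subunits of the cytosolic chaperonin were above 0, with a median log2 fold change of 0.14, and 3 of the 5 chaperones of the endoplasmic reticulum were among those higher at that limit, with a median of 0.55. Small heat shock proteins had a median of -0.70 in 8 genes, and 1 of them was above 0.

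Fkbp4, an immunophilin that works with Hsp90 on steroid receptors, had the smallest p of these genes and was singled out after its values were seen. Its level was 66.0, 95.1 and 88.1 CPM at 0, 1 and 4 h in the first generation and 165, 194, 194, 273 and 198 CPM from 0 to 6 h in the second, so that the generations did not overlap. The 0.2 Gy libraries had 138 to 169 CPM. The log2 fold change between generations was 1.34 (SE 0.18, adjusted p = 0.0638, edgeR). Fkbp4 was called by DESeq2 (adjusted p = 2.299e-07), beside 178 of all genes (0.384%), without the filter on low counts (adjusted p = 2.611e-08, edgeR) and in the 6 edgeR fits that left out 1 of the replicated libraries (adjusted p = 0.00565 to 0.0337). Without the filter, 2 more of the chaperone genes were called among 453 of all genes, Dnajc2 (log2 fold change 1.01, adjusted p = 0.00099) and Hspa1l (log2 fold change 4.45, adjusted p = 0.000683), the latter at 0.0 to 0.0808 CPM in the first and 0.0757 to 1.31 CPM in the second generation.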
